A study of Rattus norvegicus with 6 samples.

Results

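The oxidative enzymes of the rat heart were measured by 23 of the 1185 probes of an expression array, which name 1103 genes. The probes were taken by gene symbol: all whose single symbol starts with the letters of a fatty acid, citric acid cycle or respiratory enzyme family. By these letters, 14 were classed under fatty acid handling and oxidation, 1 under the citric acid cycle and 8 under the respiratory chain and ATP synthase. The classes thus include Fabp6, the ileal bile acid binding protein, and Mdh1, the cytosolic malate dehydrogenase. Each probe stands for a different gene. Of the 29 symbol starts in the rule, with Cox4 to Cox8 counted singly, 15 matched no probe with a single symbol. Among these were Acad, Cpt and Etf, Idh, Ogdh and Pdh, and Sdh and Uqcr, so the pathway was measured only in part. The rule uses symbols only, but it was set with earlier results of these data known. Total RNA came from the whole hearts of 3 rats placed on cardiopulmonary bypass (CPB, where a machine pumps and oxygenates the blood in place of heart and lungs) and 3 sham-operated controls, 1 array per heart. Strain, sex, age, anaesthesia, the length of bypass and the time of sampling are not in the labels. Nor do the labels state whether the numbered hearts of a group were handled on separate occasions, so p-values measure the spread between these samples. Each array lists no value below a lowest level, and between 10.7% and 47.3% of the probes of an array sat at it. Above it the values rise in equal steps, so the number of steps tells how finely a dim probe was measured. In whole-heart RNA, fewer cells of a type and less RNA per cell cannot be told apart.

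The heart draws most of its ATP from fatty acids. Acyl-CoA synthetases attach coenzyme A to a fatty acid, the mitochondrial beta-oxidation cycle shortens the chain and releases acetyl-CoA, and the citric acid cycle oxidises acetyl-CoA to carbon dioxide. The electrons released on the way pass through complexes I to IV of the respiratory chain, and ATP synthase (complex V) uses the proton gradient that results. The comparison of CPB with sham hearts asks whether the measured transcripts of these steps differ after bypass.

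None of the measured transcripts of the oxidative machinery passed the test between CPB and sham hearts. In the limma fit over all probes, 0 of the 23 members had a Benjamini-Hochberg adjusted p under 0.05 (0% of all 1185 probes did), and the members' adjusted p ran from 0.909 to 1. At an unadjusted p under 0.05 the count was also 0 members, against 2.95% of all probes. On quantile normalized log2 values, 11 members were higher and 12 lower in CPB hearts, and 42.3% of all probes were higher. The median difference was -0.04 for the fatty acid members and -0.0049 for the respiratory members, beside -0.03 over all probes. Mdh1, the single member classed under the citric acid cycle, differed by 0.10. Fitted differences ran from -0.28 (Eci1) to 0.43 (Acat1) among the fatty acid members and from -0.11 (Ndufv2) to 0.13 (Cox6c) among the respiratory members. The 95% intervals of all 23 members spanned 0, and they reached from 0.34 (Fabp6) to 0.93 (Acsm2) to each side of the fitted difference on the log2 scale. Fabp6 sat at the array's lowest level in all CPB hearts, so its narrow interval is no sign of precision. Among members above that level on all arrays the narrowest was 0.57 (Acat1).

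**Figure D1:**
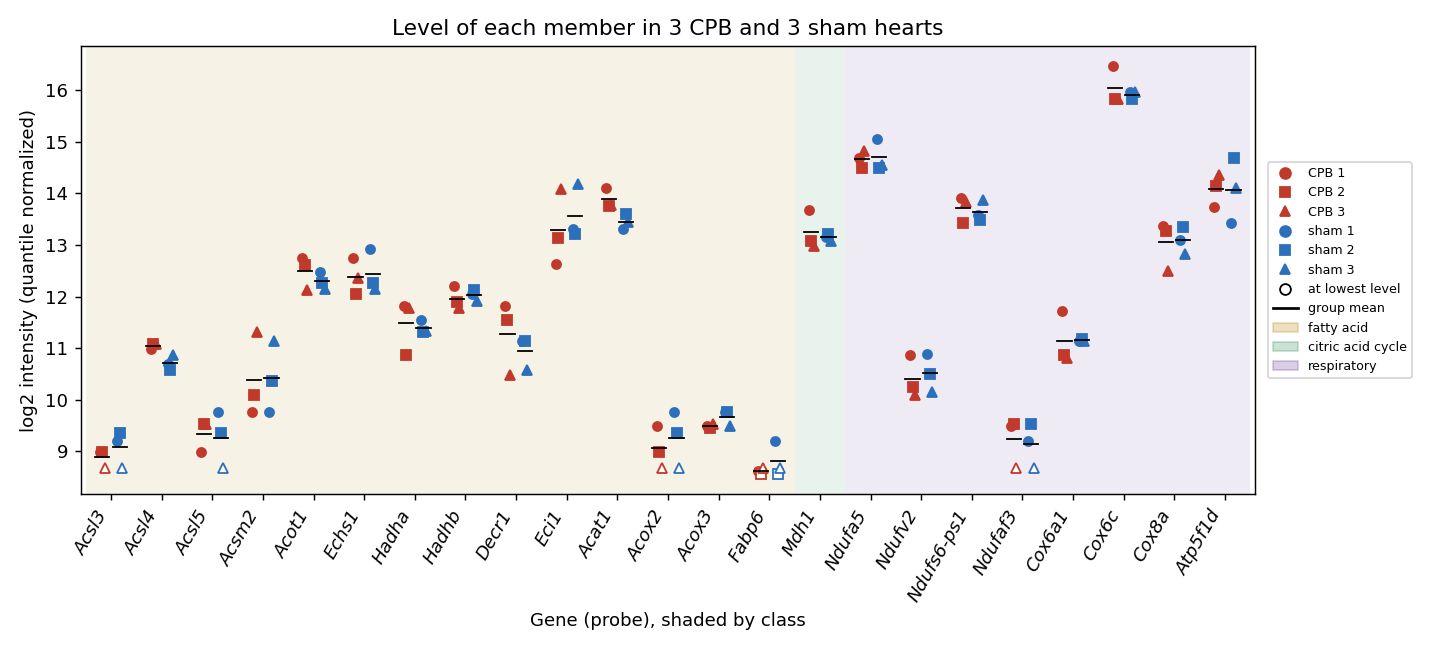
Quantile normalized log2 intensity of the 23 members (horizontal axis) in each heart, with CPB hearts in red and sham hearts in blue, symbols by replicate number, open symbols at the array's lowest level and lines at group means (n = 3). Spots range from the dim Fabp6, Acsl3 and Acox2 to Cox6c near 16, and the groups lie apart only for Acat1 and Acsl4.

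Spot brightness differed widely among the members. It depends on the probe as well as on the transcript, so the order of probes is not an order of abundance. In the CPB hearts the fatty acid probes ran from 8.56 to 14.11 and the respiratory probes from 8.68 to 16.46 on the normalized log2 scale. In the sham hearts the ranges were 8.56 to 14.19 and 8.68 to 15.96. Above the lowest level on all 6 arrays lay 18 of the 23 members (10 fatty acid probes, Mdh1 and 7 respiratory probes), against 42.0% of all probes. The other 5 (Acsl3, Acsl5, Acox2, Fabp6 and Ndufaf3) touched it on 1 or more arrays. Of the 18, 12 kept more than 5 steps on every array and 6 came within 1 to 5 steps of the lowest level.

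Fatty acid activation is represented by 4 acyl-CoA synthetases, with 2 higher, 2 lower and none past the limma threshold. Acsl4, which prefers arachidonic acid and related polyunsaturated fatty acids, lay at 10.99, 11.08 and 11.08 in CPB replicates 1, 2 and 3. In sham replicates 1, 2 and 3 it lay at 10.69, 10.58 and 10.87. All CPB values exceeded all sham values, although CPB replicate 1 stood only just above sham replicate 3. This amounted to 0.33 on the log2 scale (SE 0.29), with a 95% interval from -0.29 to 0.96 and a limma adjusted p of 0.909. The probe was dim on the coarser arrays, at 9, 24 and 5 steps above the lowest level in the CPB hearts and 4, 10 and 4 in the sham hearts. In the values as deposited the groups overlapped (0.27, limma adjusted p = 0.884).

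Acsl5, a synthetase of intestine and liver that is also found at mitochondria, gave 8.99, 9.52 and 9.52 in CPB hearts and 9.76, 9.35 and 8.68 in sham hearts. The groups overlapped, the probe never lay more than 5 steps above the lowest level, and the difference was 0.08 (SE 0.37, limma adjusted p = 0.999). Acsl3, a synthetase of the endoplasmic reticulum and lipid droplets, reached at most 2 steps on any array. Its normalized values were 8.99, 8.99 and 8.68 in CPB hearts and 9.20, 9.35 and 8.68 in sham hearts, a difference of -0.19 (SE 0.26). Acsm2, a medium-chain synthetase best known from kidney and liver, was at 9.76, 10.09 and 11.32 in CPB hearts and at 9.76, 10.35 and 11.13 in sham hearts. Its lowest heart was replicate 1 and its highest replicate 3 in each group, and the groups differed by -0.03 (SE 0.44). Acot1, the cytosolic thioesterase that splits acyl-CoA back into fatty acid and coenzyme A, is a member of a cluster of closely related genes that a probe may not separate. It stood at 12.75, 12.60 and 12.12 in CPB hearts and at 12.47, 12.27 and 12.15 in sham hearts. CPB replicates 1 and 2 exceeded all sham hearts and CPB replicate 3 lay below them, with a difference of 0.20 (SE 0.28, limma adjusted p = 0.974).

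The beta-oxidation cycle of the mitochondrial matrix is covered only in part, by Hadha and Hadhb, by Echs1 and by the auxiliary enzymes Eci1 and Decr1. Of these 5, 2 were higher and 3 lower, with a median of -0.06, and none passed the threshold. Hadha and Hadhb encode the alpha and beta subunits of the trifunctional protein, which carries out the last steps of the cycle on long chains. Their genes lie head to head in the rat genome (RefSeq, assembly GRCr8). The 243 bases between their starts (chr6:31907558-31907800, plus strand) are shown because both subunits are read outward from this interval. Capitals mark a match to the GC box GGGCGG on the reverse strand, the only match to any motif searched.
Hadhb to Hadha interval: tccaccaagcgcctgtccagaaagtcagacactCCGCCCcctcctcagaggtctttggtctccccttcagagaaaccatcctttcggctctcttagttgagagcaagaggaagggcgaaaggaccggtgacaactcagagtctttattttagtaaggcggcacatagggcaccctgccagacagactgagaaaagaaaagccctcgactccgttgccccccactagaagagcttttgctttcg

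From this shared interval, Hadha gave 11.81, 10.87 and 11.77 in CPB hearts and 11.54, 11.31 and 11.33 in sham hearts. Hadhb gave 12.21, 11.89 and 11.77 in CPB hearts and 12.05, 12.14 and 11.91 in sham hearts. The CPB hearts spread on each side of the sham hearts for both subunits. The differences were 0.09 (SE 0.32) for Hadha and -0.07 (SE 0.28) for Hadhb (limma adjusted p = 0.999 for each). The subunits did not keep a fixed ratio from heart to heart. Within an array, where any scaling factor cancels, the deposited log2 value of Hadha minus that of Hadhb was -0.48, -1.16 and 0 in CPB replicates 1, 2 and 3. It was -0.40, -0.91 and -0.48 in the sham replicates, so CPB replicate 2 and sham replicate 2 had the lowest Hadha relative to Hadhb. On the arrays numbered 3, Hadha was only 9 (CPB) and 6 (sham) steps above the lowest level.

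Echs1, the short-chain enoyl-CoA hydratase, stood at 12.75, 12.05 and 12.36 in CPB hearts and at 12.91, 12.27 and 12.15 in sham hearts. The groups overlapped, with a difference of -0.06 (SE 0.31). Eci1, the isomerase that lets unsaturated fatty acids enter the cycle, had the lowest fitted difference of all members. Its values were 12.63, 13.14 and 14.08 in CPB hearts and 13.30, 13.21 and 14.19 in sham hearts, a difference of -0.28 (SE 0.37), with a 95% interval from -1.07 to 0.51 and a limma adjusted p of 0.974. Both hearts numbered 3 stood well above the other 4, by more than the difference between the groups. Without CPB replicate 3 the difference was -0.68, and without CPB replicate 1 it was 0.05.

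Decr1, the dienoyl-CoA reductase needed for polyunsaturated fatty acids, showed the opposite layout. It lay at 11.81, 11.55 and 10.49 in CPB hearts and at 11.13, 11.13 and 10.58 in sham hearts, so the hearts numbered 3 were the lowest of each group. The difference was 0.33 (SE 0.36, limma adjusted p = 0.922). Without CPB replicate 3 it was 0.74 (unadjusted p = 0.0470, limma adjusted p = 0.883), and CPB and sham values no longer overlapped, as for 13.9% of all probes with that array left out. Without CPB replicate 1 the difference was 0.0627, and without sham replicate 3 it was 0.15. On the arrays numbered 3 Decr1 was only 3 steps above the lowest level, while Eci1 was 46 and 51 steps above it. The contrast between these auxiliary enzymes was also present before quantile normalization. The arrays numbered 3 had the largest shares of probes at the lowest level (47.3% in CPB, 43.3% in sham). Their part in the contrast was not tested, and a difference within an array cancels a scaling factor but not an offset. Within an array, the deposited log2 value of Eci1 minus that of Decr1 was 3.34 and 3.53 in CPB and sham replicate 3, and between 0.88 and 2.22 in the other 4 hearts.

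Acat1, the mitochondrial thiolase that joins or splits acetoacetyl-CoA in ketone body and isoleucine metabolism, had the largest difference of all members. It was measured at 14.11, 13.76 and 13.78 in CPB hearts and at 13.30, 13.60 and 13.45 in sham hearts. All 3 CPB values lay above all 3 sham values, as for Acsl4. The CPB heart was therefore necessarily higher in each of the 3 pairs with the same number for both genes. Eci1 and Ndufv2 were lower in CPB in all 3 pairs, Ndufv2 by only -0.01 in the pair numbered 1. The share of all probes with the same direction in all 3 pairs was not counted. The group means were 13.88 ± 0.20 (SD, n = 3) and 13.45 ± 0.15 (SD, n = 3). The CPB mean was 0.43 higher (SE 0.27), with a 95% interval from -0.13 to 1.00, a fold between 0.911 and 2.00, and it missed the threshold (limma unadjusted p = 0.125, adjusted p = 0.909). The probe was bright, 28 to 180 steps above the lowest level, so coarse steps did not limit it.

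Acat1 and Acsl4 were the only members whose groups did not overlap, 2 of 23, and both were higher in CPB hearts. Over all probes 4.22% had groups that did not overlap, and 1.6% had them with CPB higher. Acat1 kept this separation in the values as deposited (0.51, limma adjusted p = 0.884), where 4.05% of all probes had it. With arrays scaled to the same median, where 4.3% of all probes had it, the groups of both genes overlapped (0.91 for Acat1 and 0.67 for Acsl4, limma adjusted p = 0.934 for each). Acat1 and Acsl4 were also set against the other members, a measure chosen after the values were seen. It is free of any scaling factor per array but not of an offset. It uses the same arrays and was not counted over all probes, so it adds no separate support. On it Acat1 lay higher in each CPB heart than in any sham heart, with sham replicate 1 the lowest. The deposited log2 value of Acat1 minus the median of the other 16 members above the lowest level was 1.52, 1.47 and 1.497 in CPB hearts and 0.55, 1.28 and 1.24 in sham hearts. For Acsl4 the same measure was -1.82, -1.27 and -1.17 in CPB hearts and -1.94, -1.84 and -1.18 in sham hearts, which overlapped. The bases before the annotated gene starts are shown for this pair (RefSeq, GRCr8), with matches to the GC box in capitals. They run from the outer end of the annotated gene to the end of its promoter window, at chr8:62905081-62905292 for Acat1 and chrX:110803417-110803511 for Acsl4, both on the minus strand.
Acat1 upstream: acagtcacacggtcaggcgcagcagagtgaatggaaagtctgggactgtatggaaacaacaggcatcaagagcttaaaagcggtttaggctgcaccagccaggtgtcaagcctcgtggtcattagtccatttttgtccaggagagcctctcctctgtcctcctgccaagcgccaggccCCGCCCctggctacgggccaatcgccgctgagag
Acsl4 upstream: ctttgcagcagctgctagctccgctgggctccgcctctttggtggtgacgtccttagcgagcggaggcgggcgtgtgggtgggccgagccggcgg

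A promoter window of 300 bases was found for 19 of the 23 members, and 4 motifs were searched on each strand. The GC box GGGCGG occurred in the windows of 9 members (Acat1, Acox3, Acsl3, Acsl4, Echs1, Eci1, Hadha, Hadhb and Ndufa5), against 33.1% of all 33469 windows. Hadha and Hadhb lie head to head, so their windows may share a match, and the 9 members need not hold 9 separate sites. The nuclear receptor core AAGGTCA was present for Cox8a and Hadhb, against 4.61% of all windows, and the ETS core CCGGAAG for Cox8a, against 8.75%. The NRF1 core GCGCATGC matched no member, and 2.47% of all windows. No motif searched contains another. A match describes the letters of the window only. For Acsl4 the GC box lay outside the printed bases.

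The peroxisomal oxidases that start chain shortening outside mitochondria were close to the detection limit. Acox2, which acts on branched chains and bile acid precursors, lay at 9.49, 8.99 and 8.68 in CPB hearts and at 9.76, 9.35 and 8.68 in sham hearts, never more than 2 steps above the lowest level. Acox3, a branched-chain oxidase, lay at 9.49, 9.45 and 9.52 in CPB hearts and at 9.76, 9.76 and 9.49 in sham hearts, with 1 to 4 steps. The differences were -0.21 (SE 0.36) and -0.18 (SE 0.34), with limma adjusted p = 0.999 for each. Fabp6, the ileal bile acid binding protein, was at the lowest level in 5 of the 6 hearts and 1 step above it in sham replicate 1. It has no measured level in CPB hearts, so no fold is given, although the fit counts it among the lower members.

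**Figure D2:**
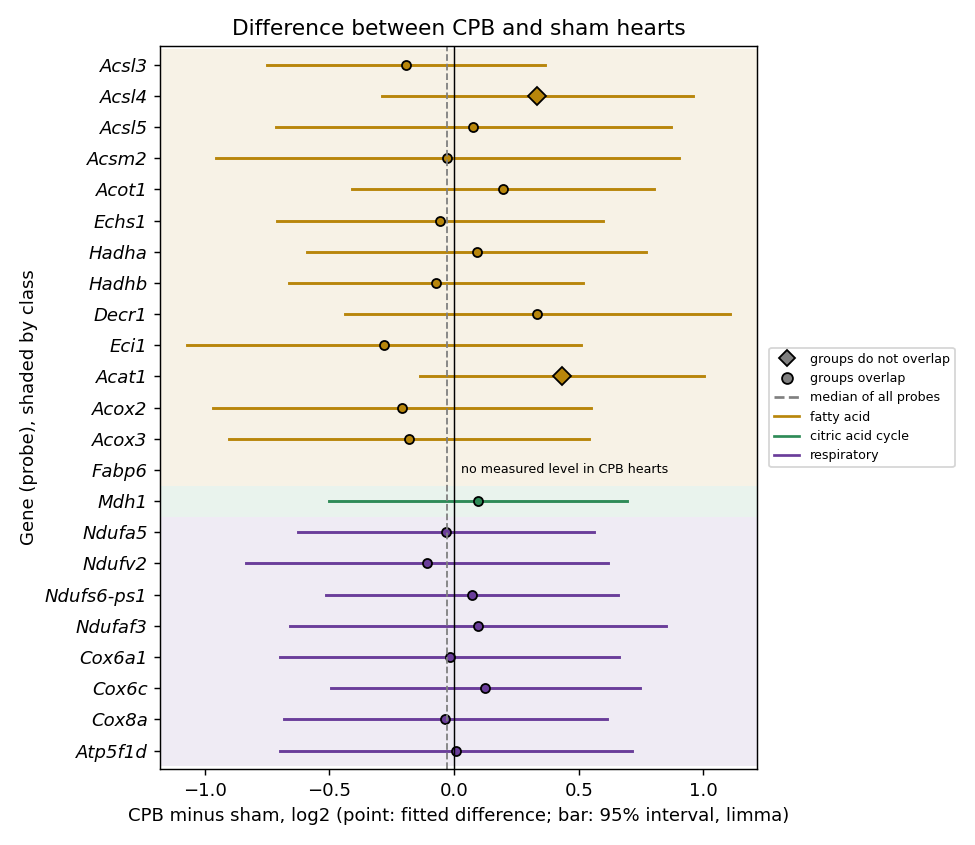
Fitted CPB minus sham difference (log2, horizontal axis) of each member with its 95% interval from limma, coloured by class. Diamonds mark Acat1 and Acsl4, whose groups did not overlap, and the dashed line is the median of all probes at -0.03. Every interval drawn spans 0, and the respiratory points run from -0.11 to 0.13.

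The citric acid cycle entered with a single probe, for Mdh1. Mdh1 is the cytosolic malate dehydrogenase, which works in the malate-aspartate shuttle that carries electrons into mitochondria, and not the enzyme of the cycle itself. It lay at 13.67, 13.08 and 12.98 in CPB hearts and at 13.16, 13.21 and 13.08 in sham hearts. CPB replicate 1 was the highest of the 6 hearts and the other CPB hearts were in or below the sham range. The difference was 0.10 (SE 0.28, limma adjusted p = 0.999), and -0.12 without CPB replicate 1. The comparison of the cycle with the other classes therefore rests on 1 cytosolic enzyme.

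Complex I was covered by 4 probes, with 2 higher and 2 lower, differences from -0.11 to 0.10 and none past the threshold. Ndufa5, an accessory subunit of the matrix arm, was at 14.68, 14.49 and 14.83 in CPB hearts and at 15.05, 14.49 and 14.55 in sham hearts, a difference of -0.03 (SE 0.28). Ndufv2, an iron-sulfur subunit of the module that takes electrons from NADH, was at 10.87, 10.25 and 10.09 in CPB hearts and at 10.88, 10.50 and 10.16 in sham hearts. The hearts numbered 3 were the lowest of each group for Ndufv2, at 2 steps above the lowest level, and the difference was -0.11 (SE 0.34). The probe annotated as Ndufs6-ps1 carries the name of a pseudogene of the subunit Ndufs6, and a probe may not separate such copies. It lay at 13.90, 13.42 and 13.83 in CPB hearts and at 13.58, 13.48 and 13.87 in sham hearts, a difference of 0.07 (SE 0.28). Ndufaf3, a factor that assembles complex I, was dim, with 2, 5 and 0 steps in CPB hearts and 1, 3 and 0 in sham hearts, and differed by 0.10 (SE 0.35). The limma adjusted p was 0.999 or 1 for each of the 4.

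Complex IV, cytochrome c oxidase, was covered by 3 subunits encoded in the nucleus. Cox6c was the brightest member, at 16.46, 15.83 and 15.83 in CPB hearts and at 15.96, 15.83 and 15.96 in sham hearts. Several of these values are identical because quantile normalization gives a bright probe the value of its rank, so small steps of Cox6c record rank alone. On the arrays it lay 133 to 766 steps above the lowest level, and the difference was 0.13 (SE 0.29, limma adjusted p = 0.999). Cox6a1 and Cox8a are the isoforms of non-muscle tissues, which the heart expresses beside its muscle forms. Cox6a1 gave 11.72, 10.87 and 10.81 in CPB hearts and 11.13, 11.18 and 11.13 in sham hearts. The 3 sham hearts nearly coincided (SD 0.029), and CPB replicate 1 stood above them with the other CPB hearts below. Cox8a gave 13.38, 13.28 and 12.50 in CPB hearts and 13.10, 13.35 and 12.82 in sham hearts, with the hearts numbered 3 lowest. The differences were -0.02 (SE 0.32) for Cox6a1 and -0.03 (SE 0.30) for Cox8a, with limma adjusted p = 1 for each. Atp5f1d, the delta subunit in the central stalk of ATP synthase, lay at 13.73, 14.15 and 14.36 in CPB hearts and at 13.42, 14.68 and 14.11 in sham hearts. Sham hearts spanned its lowest and its highest value, and the difference was 0.01 (SE 0.33, limma adjusted p = 1).

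**Figure D3:**
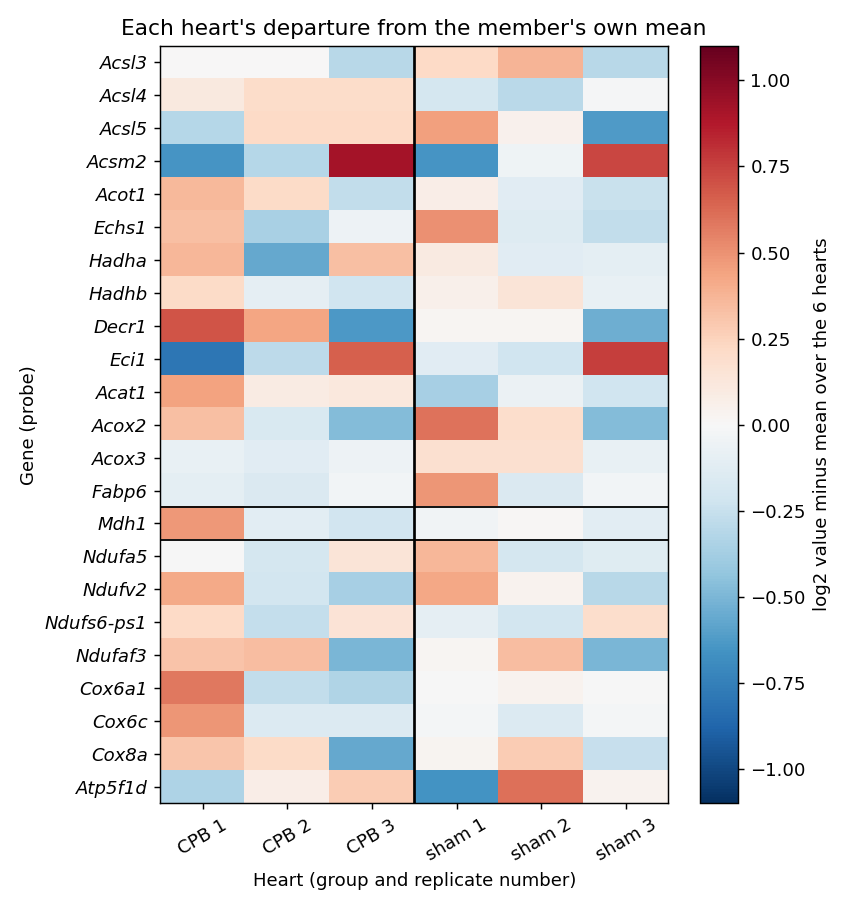
Log2 value of each member (rows) in each heart (columns, group and replicate number) minus that member's mean over the 6 hearts, red above and blue below it, with lines between classes and groups. Eci1 and Acsm2 are high, and Decr1 and Cox8a low, in the hearts numbered 3 of both groups, and 6 of the 8 respiratory members are above their mean in CPB 1.

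Single hearts departed from the rest across many members. In CPB replicate 1, 16 of the 23 members lay above their own mean over the 6 hearts (median departure 0.31), and in sham replicate 3 only 4 did (median -0.12). The other hearts had 9 (CPB replicates 2 and 3), 14 (sham replicate 1) and 12 (sham replicate 2) members above it. Among the respiratory members, 6 of 8 were above their mean in CPB replicate 1, against 3 of 8 in each of CPB replicates 2 and 3. The share of all probes above their own mean in each heart was not counted. These counts therefore cannot be called particular to the members. Hearts that share a number gave similar values for several members. The numbers also ranked the arrays alike in both groups by the share of probes at the lowest level. Acsm2 averaged 9.76, 10.22 and 11.22 over the hearts numbered 1, 2 and 3, a range of 1.47, while its groups differed by -0.03. Eci1 averaged 12.97, 13.18 and 14.13, and Decr1 11.47, 11.34 and 10.53. For 20 of the 23 members the range of the 3 number means exceeded the difference between the groups. The same held for 83.0% of all probes, a share near that of the members, and a range over 3 means tends to be wider than a difference of 2. The exceptions were Acat1, Acsl4 and Acox3.

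The balance of directions depended on how the arrays were scaled. In the values as deposited, 10 members were higher and 13 lower, while the median over all probes was -0.29 and 22.7% of probes were higher. With arrays scaled to the same median, 19 members were higher and 4 lower, with 61.3% of all probes higher and a median of 0.11. The class medians after median scaling were 0.29 for the fatty acid, 0.48 for the citric acid cycle and 0.39 for the respiratory members, and all 8 respiratory members were then higher. This shift was shared by other measurable probes. For the 18 members above the lowest level on all arrays the median was 0.44 after median scaling, 0.05 as deposited and -0.0049 after quantile normalization. The 498 such probes of the whole array had medians of 0.30, -0.09 and 0.02. Median scaling adds the same constant to every deposited difference, so these settings rank the probes alike. The members' median thus lay above that of such probes as deposited and below it after quantile normalization, and no direction for a class can be read from these data.

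**Figure D4:**
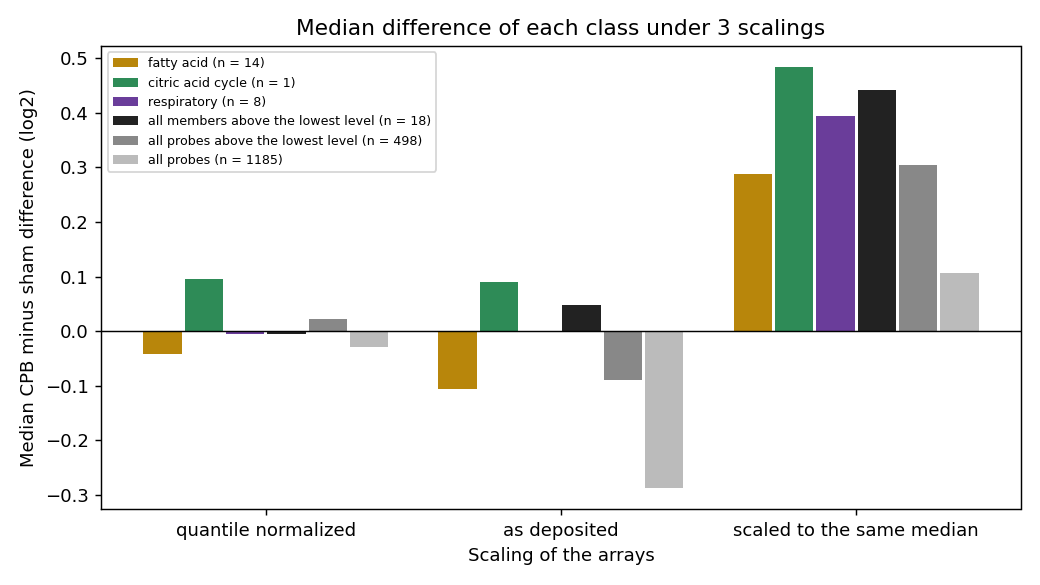
Median CPB minus sham difference (log2, bars from 0) of each class, of the members and of all probes above the lowest level on all arrays, and of all probes, under 3 scalings of the arrays. All bars are positive after scaling to the same median, where the respiratory members stand at 0.39, and near 0 after quantile normalization.

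Other genes of oxidative metabolism also stayed short of the threshold. Of a list of 130 further genes of mitochondrial, fatty acid and energy metabolism, 21 were measured, 9 higher and 12 lower in CPB hearts with a median of -0.04. None of the 21 passed the limma threshold and 0 had an unadjusted p under 0.05, against 2.95% of all probes. The smallest unadjusted p belonged to Bckdk, the kinase that restrains branched-chain amino acid oxidation, at 11.26, 10.87 and 11.08 in CPB hearts and 10.32, 10.58 and 10.87 in sham hearts (difference 0.48, SE 0.31, limma adjusted p = 0.909). Next came Ckm, muscle creatine kinase, at 15.96, 15.21 and 15.69 against 15.83, 15.96 and 16.46 (difference -0.47, SE 0.31). Tomm20, a receptor of the mitochondrial import pore, was the only one of the 21 whose groups did not overlap, against 4.22% of all probes. It lay at 11.54, 11.74 and 11.93 in CPB hearts and 11.54, 11.31 and 11.33 in sham hearts (difference 0.34, SE 0.28). Its lowest CPB value and its highest sham value, both of replicate 1, are equal to the decimals given. Timm44, a subunit of the inner membrane import motor, differed by 0.44 (SE 0.43), with 0 to 3 steps in sham hearts. Pdp2, a phosphatase that activates pyruvate dehydrogenase, and Slc25a10, the dicarboxylate carrier, stayed within 2 and 1 steps of the lowest level.

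Markers of heart muscle were present in all hearts. Of 17 cardiomyocyte markers 6 were measured, 3 higher and 3 lower in CPB hearts, all above the lowest level on all arrays. Their summed level was 19.23 to 19.26 (log2) in CPB and 19.22 to 19.30 in sham hearts. Quantile normalization gives the brightest probes values by rank, which holds such a sum nearly constant. It therefore cannot show whether muscle content differed. The lists for adipocytes, endothelial cells, hepatocytes and erythroid cells had 0 measured genes. The 2 fibroblast markers measured, Sparc and Dcn, had a summed level of 13.47 to 14.42 in CPB and 14.95 to 15.15 in sham hearts. Sox10 was at the lowest level on 4 arrays and Aif1 on 2, and the other markers measured were above it throughout. The 4 nerve and glia markers summed to 11.97 to 12.23 in CPB and 12.35 to 12.55 in sham hearts. The 6 leukocyte markers (13.13 to 13.72 against 13.57 to 13.90) and the 2 smooth muscle markers (12.92 to 13.83 against 13.03 to 13.41) overlapped. Taken singly, 2 cardiomyocyte, 1 fibroblast, 1 nerve and glia, 1 leukocyte and 0 smooth muscle markers had groups that did not overlap. Over all probes the share was 4.22%. No marker passed the limma threshold. An unadjusted limma p under 0.05 was found for 1 of the 2 fibroblast and 2 of the 6 leukocyte markers. It was found for 0 markers of the other lists, and for 2.95% of all probes. The part of cell composition in the differences of the oxidative genes was not tested.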

How the data were processed

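Total RNA of 6 rat hearts was measured on 1 array each, and groups and replicate numbers came from the sample titles. No source here names the array chemistry, scanner, background correction or normalization. The authors deposited natural log values, a scale inferred from the numbers: their hyperbolic sine falls on equally spaced steps above a lowest level (largest distance 6.29e-06 of a step). What the authors did before that, including any centring, is unknown.

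The hyperbolic sine times 2 gave linear values, which were quantile normalized and turned into log2 without a pseudocount. The test was limma 3.58.1 (R 4.3.3; lmFit and eBayes, variance trend, two-sided), adjusted over all 1185 probes, after the code was tested on simulated data. An exact permutation test of 3 against 3 hearts cannot go below p = 0.1. Of the probes, 1113 carry 1 symbol, 2 several and 70 none, from the platform annotation. All 23 members matched the RefSeq gene table (GRCr8) and all are named. The members and lists were chosen with earlier results of these data known.

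Hearts with the same number deviated together from their group means: across probes the correlation was 0.240, 0.277 and 0.296 for numbers 1, 2 and 3. Deviations from a group mean cancel within the group, so these correlations are not independent. Hearts with unlike numbers were not correlated. Whether the numbers pair the hearts is not known, and no label mentions a litter or day they share. Before normalization the correlations were 0.0584, 0.300 and 0.442. The share of probes at the lowest level also ranked the numbers alike in both groups. For numbers 1, 2 and 3 it was 27.4%, 10.7% and 47.3% in CPB and 25.9%, 20.5% and 43.3% in sham. Its part in the correlations was not tested. Alternatives were the values as deposited, median scaling, the replicate block, a pseudocount (410.5), only probes above the lowest level, no variance trend, and each array left out in turn.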

Additional observations from a re-analysis of the deposited data

How the results depend on the processing

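Over 12 alternatives, 0 members passed the limma threshold in any (smallest adjusted p 0.613), and the fit with the replicate number as a block also called 0 and changed no other call. Of 271 comparisons of a member with an alternative, 228 kept their direction and 43 reversed, 32 of these when 1 array was left out. The reversals concern 16 members, Eci1 and Acox2 among them, and 7 members reversed in none. Members whose groups did not overlap numbered 1 in the values as deposited and 0 after median scaling, and from 2 to 5 when 1 array was left out, where 8.35% to 13.9% of all probes had groups apart. After median scaling the medians moved to 0.29 (fatty acid), 0.48 (citric acid cycle) and 0.39 (respiratory). With 1 array left out the fatty acid median ran from -0.0532 to 0.085 and the respiratory median from -0.0649 to 0.10. Decr1 ran from 0.0627 to 0.74. Reversed in the values as deposited were Acsl5 (-0.19), Ndufa5 (0.18) and Ndufaf3 (-0.14). Reversed after median scaling were Ndufa5 (0.57), Echs1 (0.37), Eci1 (0.0204), Acsm2 (0.17), Hadhb (0.39), Ndufv2 (0.23), Cox6a1 (0.32) and Cox8a (0.35). Median scaling adds 1 constant to every deposited difference. With 1 array left out, differences ranged from -0.50 to 0.0086 for Acox2, -0.20 to 0.30 for Acsl5, -0.49 to 0.31 for Acsm2 and -0.32 to 0.32 for Atp5f1d. They ranged from -0.31 to 0.14 for Cox6a1, -0.0596 to 0.24 for Cox6c, -0.19 to 0.24 for Cox8a, -0.23 to 0.17 for Echs1 and -0.68 to 0.0528 for Eci1. They ranged from -0.0652 to 0.39 for Hadha, -0.18 to 0.0142 for Hadhb, -0.12 to 0.23 for Mdh1 and -0.13 to 0.15 for Ndufa5. For Ndufaf3 they ran from -0.0934 to 0.36, for Ndufs6-ps1 from -0.0152 to 0.21 and for Ndufv2 from -0.34 to 0.0844. For the other reversals the cause was not tested. Steps of the arrays limit the dim members, and 5 of 23 touched the lowest level.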
